A study of Mus musculus with 12 samples.

Results

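The piRNA pathway genes were 10 genes chosen by symbol, namely Fkbp6, Mael, Asz1, Tdrd1, Tdrd9, Mov10l1, Piwil2, Ddx4, Pld6 and Tex19.1, and each matched 1 of the 54446 gene identifiers listed. Levels are in TPM, a length-corrected share of each library's RNA scaled to a fixed total. Of the 10 genes, 8 reached a mean of at least 1 TPM over all libraries and entered the test with 15727 genes in all. Tdrd1 and Tdrd9 stayed below that level, and Asz1 reached it only through the DNMT3ABKO libraries.

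RNA sequencing had been carried out on 12 libraries of mouse embryonic stem (ES) cells, 2 in each of 6 groups. The wild-type line, KH, and the line DNMT3ABKO, deficient in the enzymes of de novo DNA methylation (Dnmt3a and Dnmt3b), were collected untreated (0 h) and after 72 and 144 h with the mTOR inhibitor INK128 (mTORi), a treatment under which ES cells enter a dormancy like that of diapause. Each genotype was represented by 1 line, so genotype and line cannot be told apart. No untreated culture was sampled at 72 or 144 h, so mTORi and time in culture cannot be told apart either. Both lines were grown on a feeder layer of inactivated fibroblasts per the study's methods, and sorted for viable cells. E14 stands before the names of both lines in the labels, but the methods call the wild-type line KH2.

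PIWI-interacting RNAs (piRNAs) are small RNAs of the germ line that guide PIWI proteins to transposon transcripts, which are then cut or silenced through DNA methylation of their genes. Long precursors are unwound, cut at the outer mitochondrial membrane, loaded onto PIWI proteins and amplified in granules built by Tudor-domain proteins. Many of the genes involved have CpG-rich promoters that are methylated in somatic cells, and ES cells transcribe several of them.

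In DNMT3ABKO cells, Fkbp6, Asz1 and Tex19.1 were higher than in KH cells at all times, Fkbp6 by 24.6 to 45.3 times in mean TPM and Tex19.1 by 1.63 to 2.83 times, while Asz1 was listed at or near 0 in every KH library. Under mTORi, Mael, Piwil2 and Tex19.1 rose in both lines at both times. Ddx4 was lower in DNMT3ABKO cells at 72 h, and Pld6 did not pass the test in any comparison. Tex19.1 gained more under mTORi in DNMT3ABKO than in KH cells, and so did Asz1 on the log2(TPM + 1) scale, where the 72 h difference depended on the added 1. These are bulk samples, in which fewer cells that express a gene and less of its RNA per cell cannot be told apart.

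Promoter sequences of 9 of the 10 genes were given by RefSeq (GRCm38.p6, the assembly that mm10 represents), each running from 250 bases before to 50 bases after the transcription start. The windows of 6 genes are shown up to the start of transcription, because they carry the extremes of the comparison. These are 2 genes that were far higher in DNMT3ABKO cells (Fkbp6 and Asz1), the most abundant gene (Tex19.1) and a gene that was lower (Tdrd1). The other 2, Mael and Tdrd9, overlapped or nearly overlapped between lines at 0 h and were higher in every DNMT3ABKO library at 72 h. Capitals mark CACGTG, the E-box bound by the MAX and MGA subunits of the repressive complex PRC1.6, and TCCCGC, the core of the E2F6 motif, searched on both strands (GCGGGA on the strand shown is TCCCGC on the other). Each sequence is given 5′ to 3′ on the strand of its gene.
Fkbp6, chr5:135350045-135350294, minus strand: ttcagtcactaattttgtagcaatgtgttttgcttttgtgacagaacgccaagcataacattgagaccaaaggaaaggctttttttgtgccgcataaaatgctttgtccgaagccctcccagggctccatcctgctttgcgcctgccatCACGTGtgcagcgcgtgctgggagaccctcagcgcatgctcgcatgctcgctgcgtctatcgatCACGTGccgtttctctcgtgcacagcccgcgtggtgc
Asz1, chr6:18109062-18109311, minus strand: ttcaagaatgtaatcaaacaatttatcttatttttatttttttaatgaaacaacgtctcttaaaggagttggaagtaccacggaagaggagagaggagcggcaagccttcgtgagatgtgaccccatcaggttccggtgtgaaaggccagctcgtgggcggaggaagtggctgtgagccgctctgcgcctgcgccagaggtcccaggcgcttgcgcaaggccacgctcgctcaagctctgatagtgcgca
Tex19.1, chr11:121145893-121146142, plus strand: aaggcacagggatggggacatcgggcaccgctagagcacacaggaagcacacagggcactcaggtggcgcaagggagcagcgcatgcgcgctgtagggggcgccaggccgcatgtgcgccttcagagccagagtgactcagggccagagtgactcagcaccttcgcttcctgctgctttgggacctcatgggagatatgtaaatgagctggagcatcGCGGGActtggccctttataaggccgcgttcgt
Tdrd1, chr19:56825959-56826208, plus strand: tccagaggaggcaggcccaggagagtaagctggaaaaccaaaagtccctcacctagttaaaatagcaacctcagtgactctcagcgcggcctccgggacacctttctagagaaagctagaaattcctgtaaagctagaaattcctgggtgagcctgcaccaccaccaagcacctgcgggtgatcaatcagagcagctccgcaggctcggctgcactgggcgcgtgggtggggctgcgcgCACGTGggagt
Tdrd9, chr12:111971309-111971558, plus strand: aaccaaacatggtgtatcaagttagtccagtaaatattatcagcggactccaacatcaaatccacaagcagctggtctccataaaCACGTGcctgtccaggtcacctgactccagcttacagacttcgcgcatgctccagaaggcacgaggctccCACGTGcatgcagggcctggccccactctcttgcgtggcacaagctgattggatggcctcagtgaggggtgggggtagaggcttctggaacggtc
Mael, chr1:166238748-166238994, minus strand: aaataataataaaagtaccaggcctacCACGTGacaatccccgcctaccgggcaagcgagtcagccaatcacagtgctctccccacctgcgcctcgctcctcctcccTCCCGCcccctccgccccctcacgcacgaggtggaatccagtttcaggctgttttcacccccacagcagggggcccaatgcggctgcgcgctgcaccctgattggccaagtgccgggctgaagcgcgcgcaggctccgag

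CACGTG, which reads the same on both strands and contains a CpG, was present in 7 of the 9 windows (77.8%), against 7.15% of all 32851 RefSeq windows of the same length. Among the 14281 windows with at least 10 CpGs, the number in the member with the fewest, the share was 10.9%. Fkbp6 and Tdrd9 each held 2 copies (22.2% of the members), which 0.594% of all windows did. In Fkbp6 the copies began at positions -101 and -37 relative to the RefSeq start, and in Tdrd9 at -165 and -95. Mael, Tdrd1, Mov10l1, Ddx4 and Pld6 had 1 copy each, and Asz1 and Tex19.1 had none.

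TCCCGC on either strand was found in Mael, Ddx4 and Tex19.1, or 33.3% of the member windows against 20% of all windows (6562 of 32851) and 40.3% of those with at least 10 CpGs. The windows of the members held a median of 20 CpGs and those of all genes 7. CACGTG was present both in genes that were higher in DNMT3ABKO cells (Fkbp6) and in genes that were lower (Tdrd1, Ddx4), and Asz1 had neither motif. Binding and methylation of these windows were not analysed here.

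**Figure D1:**
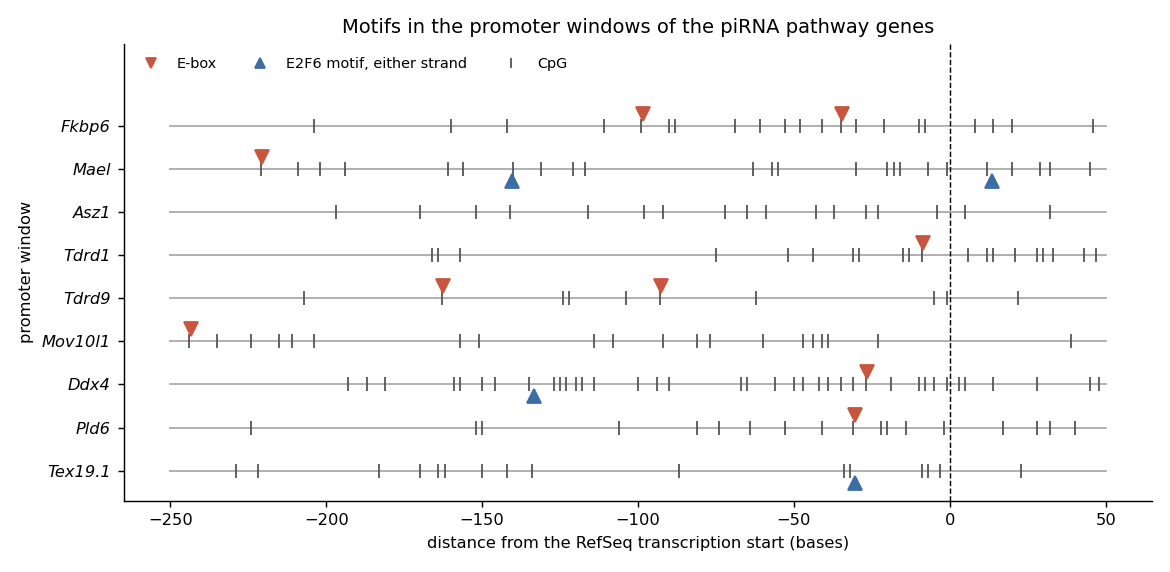
Positions of E-boxes, E2F6 motifs and CpGs in the RefSeq promoter windows of 9 piRNA pathway genes, with the distance from the transcription start in bases on the x axis and 1 gene per line. E-boxes are present in 7 windows, with 2 copies in Fkbp6 and in Tdrd9, and absent from Asz1 and Tex19.1.

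All 10 genes lie on autosomes (mm10, counted from 1). Fkbp6 (ENSMUSG00000040013.11) spans chromosome 5 from 135291704 to 135350044, Asz1 (ENSMUSG00000010796.11) chromosome 6 from 18050964 to 18109061, and Tex19.1 (ENSMUSG00000039329.8) chromosome 11 from 121146143 to 121148319. No gene that overlaps a member had a mean above 0.155 TPM. The nearest protein-coding genes on either side of Fkbp6 were Fzd9 and Trim50. At 0 h Fzd9 was at 2.39 TPM in the KH line against 2.90 TPM in the DNMT3ABKO line and was not called. It was called higher in DNMT3ABKO cells at 72 h (0.59, adjusted p = 0.00822) and at 144 h (0.57, adjusted p = 0.00755), in the same direction as Fkbp6. Of all tested genes, 9.26% and 11.0% were called higher at these times. Trim50 had a mean of 0.0463 TPM. Wnt2 and Cftr, which flank Asz1, were under 1 TPM in every group. Tex19.2, a near copy of Tex19.1 that lies 27465 bases away and could exchange reads with it, had group means of 0.515 to 1.55 TPM. Of the other neighbours, Vwa2 beside Tdrd1 was called lower in DNMT3ABKO cells at 0 and 144 h (-0.60 and -0.78). Aspg beside Tdrd9 (-0.61, -0.92 and -1.20) and Slc39a14 beside Piwil2 (-0.33, -0.40 and -0.27) were called lower at 0, 72 and 144 h. Tdrd9 and Piwil2 had higher means there, and Tdrd1 lower ones. Flcn beside Pld6 was called lower at 72 and 144 h (-0.31 and -0.22). Of all tested genes, 4.14%, 10% and 15.5% were called lower in order of time.

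Over the members, levels spanned a wide range. In KH cells at 0 h, Tex19.1 was the most abundant at 36.6 and 39.1 TPM, followed by Ddx4 (9.54 and 10.8 TPM) and Piwil2 (5.6 and 5.69 TPM). The ranges of Mael, Mov10l1 and Pld6 all lay between 3.02 and 5.0 TPM and overlapped for Mov10l1 and Pld6. Fkbp6 and Tdrd1 were near 1 TPM, and Tdrd9 and Asz1 at most 0.142 TPM. In DNMT3ABKO cells Fkbp6 moved to the second place behind Tex19.1 at every time.

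The summed level of the 10 genes was 67.0 ± 3.99 TPM (SD, n = 2) in KH and 124 ± 7.14 TPM in DNMT3ABKO cells at 0 h. It stood at 102 ± 1.05 and 234 ± 1.60 TPM at 72 h, and at 93.5 ± 0.0762 and 245 ± 8.09 TPM at 144 h. Fkbp6 and Tex19.1 made up most of this gap. Without these genes, which were set aside after their values had been seen, the sums of the other 8 were 27.9 ± 2.14 in KH against 27.5 ± 4.67 TPM in DNMT3ABKO cells at 0 h, 47.4 ± 0.512 against 53.5 ± 2.65 TPM at 72 h, and 37.7 ± 0.944 against 46.6 ± 0.624 TPM at 144 h.

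**Figure D2:**
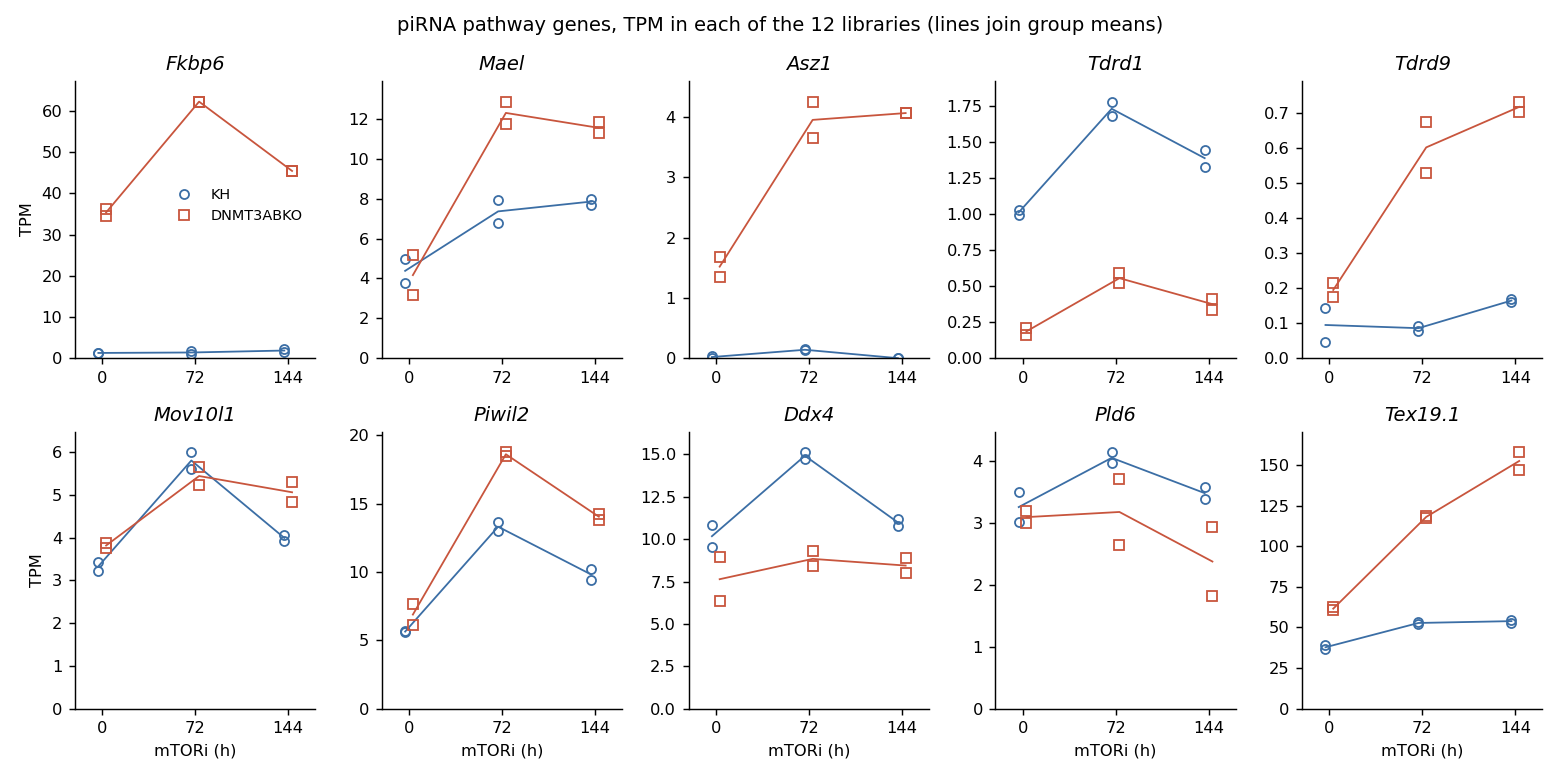
TPM of each piRNA pathway gene (y axis, starting at 0 and scaled per gene) against hours of mTORi (x axis) in KH (circles) and DNMT3ABKO (squares), with 1 symbol per library and lines through the means of 2 libraries. Fkbp6 lies between 0.980 and 2.11 TPM in KH and between 34.5 and 62.3 TPM in DNMT3ABKO libraries, Tex19.1 reaches 158 TPM in DNMT3ABKO cells at 144 h, and Tdrd1 is lower in every DNMT3ABKO library than in any KH library.

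The difference between the lines was examined first, at each time, as log2(TPM + 1) in DNMT3ABKO minus KH. As a check of the labels, the log2 difference at 0 h was -2.48 for Dnmt3a and -3.21 for Dnmt3b. Of the 8 genes tested, 3 were called higher and 0 lower at 0 h (limma, Benjamini-Hochberg adjusted p under 0.05), where 4.92% of all tested genes were called higher and 4.14% lower. At 72 h, 5 were higher and 1 lower, against 9.26% and 10% of all genes. At 144 h, 5 were higher and 0 lower, against 11.0% and 15.5%. The filter on low values shaped these counts, since Asz1 passed it only through the DNMT3ABKO libraries and Tdrd1, which was lower there, did not pass. Without Asz1, set aside after its values had been seen, 2 of 7 were higher at 0 h, 4 at 72 h and 4 at 144 h. In the fit without the filter, which tested all 10 members, 3, 5 and 6 were higher and 1, 2 and 1 lower. Of all genes in that fit, 2.17%, 5.44% and 7.68% were called higher and 1.57%, 3.81% and 6.57% lower. The median difference of the 7 genes was 0.15, 0.45 and 0.48, and that of all tested genes -0.05, -0.04 and -0.04.

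Among the factors that act on precursors and at mitochondria, Asz1 (also called GASZ, a scaffold of the intermitochondrial cement) was listed at 0 and 0.0373 TPM in KH cells at 0 h, at 0.133 and 0.145 TPM at 72 h and at 0 in both libraries at 144 h. In the DNMT3ABKO line its values were 1.35 and 1.69 TPM, then 4.26 and 3.65 TPM, and finally 4.07 TPM in both libraries. The lines did not overlap at any time. The difference on the log2(TPM + 1) scale was 1.30 ± 0.11 (SE; adjusted p = 7.23e-05), 2.12 ± 0.11 (adjusted p = 8.10e-07) and 2.34 ± 0.11 (adjusted p = 1.47e-07) at 0, 72 and 144 h, and its size depends on the added 1 because the KH values lie at or near 0.

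Mov10l1, the RNA helicase that feeds precursors into processing, showed little difference between lines. It stood at 3.44 and 3.22 TPM in KH and at 3.87 and 3.77 TPM in DNMT3ABKO cells at 0 h, at 6.0 and 5.61 against 5.65 and 5.23 TPM at 72 h, and at 4.06 and 3.93 against 4.83 and 5.29 TPM at 144 h. The lines overlapped at 72 h and were apart at 0 and 144 h. It was called higher at 144 h (log2 difference 0.28 ± 0.09, adjusted p = 0.0484), and that call was lost when any of 10 of the 12 libraries was left out, all except those of DNMT3ABKO cells at 0 h, with adjusted p of 0.0561 to 0.247, and with the replicate number as a block (0.0898).

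Pld6, the mitochondrial nuclease that cuts precursors (MitoPLD, the homologue of Zucchini), stood at 3.02 and 3.49 TPM in KH against 3.0 and 3.19 TPM in DNMT3ABKO cells at 0 h. At 72 h it was at 4.14 and 3.96 against 3.71 and 2.64 TPM, and at 144 h at 3.58 and 3.38 against 2.94 and 1.82 TPM. DNMT3ABKO libraries overlapped KH at 0 h and lay below it later, and their own replicates were far apart. The difference was not called, at -0.43 (95% interval -0.80 to -0.05, adjusted p = 0.0883) at 144 h, where it passed only without DNMT3ABKO 144 h replicate 1 (-0.67, adjusted p = 0.0274).

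Among the PIWI protein and its partners, Piwil2 (MILI, the PIWI protein that cuts transposon RNA and starts the amplification loop) stood at 5.6 and 5.69 TPM in KH against 6.15 and 7.64 TPM in DNMT3ABKO cells at 0 h. At 72 h it was at 13.0 and 13.7 against 18.5 and 18.8 TPM, and at 144 h at 10.2 and 9.45 against 14.3 and 13.8 TPM. All DNMT3ABKO libraries lay above the KH libraries of their time. Piwil2 was called higher at 72 h (0.45 ± 0.10, adjusted p = 0.00977) and at 144 h (0.48 ± 0.10, adjusted p = 0.00589) but not at 0 h (0.24 ± 0.10, adjusted p = 0.164). The 72 h call was lost without KH 72 h replicate 1 (adjusted p = 0.0807) or either DNMT3ABKO 72 h library (0.0579 and 0.0685), and the 144 h call without KH 144 h replicate 2 (0.0504).

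Fkbp6, a co-chaperone of HSP90 needed for piRNA loading, showed the largest difference of the members tested. It stood at 1.18 and 1.34 TPM in KH against 34.5 and 36.2 TPM in DNMT3ABKO cells at 0 h, at 0.980 and 1.77 against 62.3 and 62.2 TPM at 72 h, and at 2.11 and 1.59 against 45.4 and 45.5 TPM at 144 h. The lowest DNMT3ABKO library was far above the highest KH library. The log2 difference was 4.01 (95% interval 3.68 to 4.33, adjusted p = 1.92e-07) at 0 h, 4.76 (4.43 to 5.08, adjusted p = 2.33e-08) at 72 h and 4.03 (3.71 to 4.36, adjusted p = 1.37e-08) at 144 h.

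Ddx4 (VASA, the DEAD-box helicase of germ granules) moved the other way. It stood at 9.54 and 10.8 TPM in KH against 6.32 and 8.95 TPM in DNMT3ABKO cells at 0 h, at 14.7 and 15.1 against 9.27 and 8.39 TPM at 72 h, and at 11.2 and 10.8 against 8.01 and 8.87 TPM at 144 h. DNMT3ABKO libraries were below KH at every time. It was called lower at 72 h (-0.70 ± 0.14, adjusted p = 0.00578) and not at 0 h (-0.39 ± 0.14, adjusted p = 0.112) or 144 h (-0.35 ± 0.14, adjusted p = 0.0884). The 72 h call was lost without DNMT3ABKO 72 h replicate 2 (-0.63, adjusted p = 0.0537), and the 0 h difference passed without DNMT3ABKO 0 h replicate 2 (-0.61, adjusted p = 0.00378).

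Mael (Maelstrom, a granule protein with an HMG box that acts in transposon silencing) overlapped between the lines at 0 h, at 3.76 and 5.0 TPM in KH and 3.18 and 5.15 TPM in DNMT3ABKO cells. At 72 h it was at 7.93 and 6.81 against 12.9 and 11.8 TPM, and at 144 h at 7.71 and 8.01 against 11.8 and 11.3 TPM. The lines were apart at both later times. Mael was called higher at 72 h (0.67 ± 0.17, adjusted p = 0.0229) but not at 144 h (0.50 ± 0.17, adjusted p = 0.0569). The 72 h call was lost without KH 72 h replicate 1 or 2 (adjusted p = 0.0641 and 0.147), without DNMT3ABKO 72 h replicate 1 or 2 (0.132 and 0.0767), and when genes of low level were kept in the test (0.0668).

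Of the Tudor-domain proteins, Tdrd1, which binds methylated arginines of PIWI proteins, was lower in DNMT3ABKO cells. Its values were 0.994 and 1.03 TPM in KH against 0.160 and 0.212 TPM at 0 h, 1.78 and 1.68 against 0.593 and 0.519 TPM at 72 h, and 1.45 and 1.33 against 0.412 and 0.338 TPM at 144 h. No DNMT3ABKO library reached any KH library. Tdrd1 was tested only in the fit that kept all 37364 genes with a value above 0, where its log2 difference was -0.76 ± 0.08 (adjusted p = 0.00234), -0.81 ± 0.08 (adjusted p = 6.90e-04) and -0.80 ± 0.08 (adjusted p = 3.97e-04) at 0, 72 and 144 h. In that fit 1.57%, 3.81% and 6.57% of all genes were called lower in the same order.

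Tdrd9, a helicase with a Tudor domain that works with PIWI proteins in the nucleus, was at most 0.170 TPM in KH cells. The DNMT3ABKO libraries had 0.174 and 0.216 TPM at 0 h, 0.530 and 0.676 TPM at 72 h, and 0.734 and 0.704 TPM at 144 h. The lines were apart at all times, narrowly at 0 h. In the fit without the filter, Tdrd9 was called higher at 72 h (0.56 ± 0.06, adjusted p = 9.99e-04) and at 144 h (0.56 ± 0.06, adjusted p = 5.24e-04) and not at 0 h (0.13 ± 0.06, adjusted p = 0.362). In that fit 2.17%, 5.44% and 7.68% of all genes were called higher at 0, 72 and 144 h.

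Tex19.1, a germline and placental protein that limits retrotransposon activity, was the most abundant member in both lines. It stood at 36.6 and 39.1 TPM in KH against 60.7 and 62.5 TPM in DNMT3ABKO cells at 0 h, at 52.1 and 53.5 against 117 and 119 TPM at 72 h, and at 53.0 and 54.8 against 158 and 147 TPM at 144 h. Every DNMT3ABKO library was above every KH library. The log2 difference was 0.69 (95% interval 0.55 to 0.83, adjusted p = 1.04e-04), 1.15 (1.00 to 1.29, adjusted p = 9.35e-07) and 1.48 (1.34 to 1.62, adjusted p = 5.18e-08) at 0, 72 and 144 h.

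**Figure D3:**
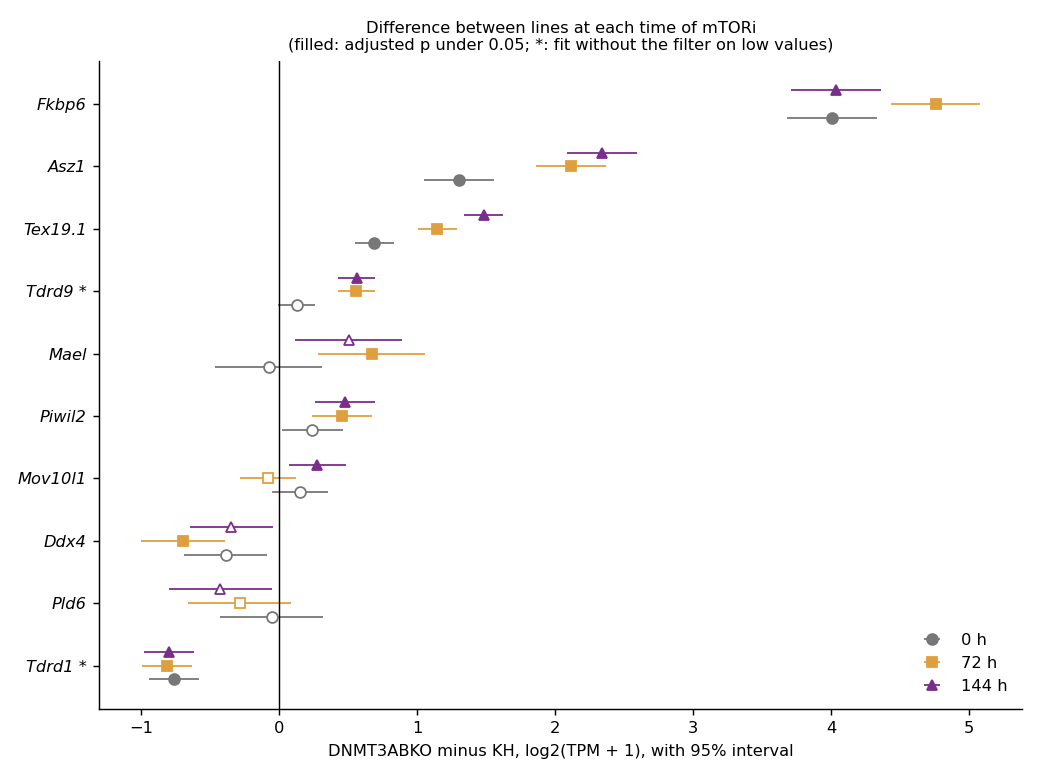
Difference between DNMT3ABKO and KH cells in log2(TPM + 1) (x axis) for each piRNA pathway gene (y axis) at 0, 72 and 144 h of mTORi, with 95% intervals and filled symbols for adjusted p under 0.05. Fkbp6, Asz1 and Tex19.1 lie to the right at every time and Tdrd1 to the left. Genes marked with an asterisk come from the fit without the filter on low values.

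The response to mTORi was examined next within each line. In KH cells, 5 of the 8 genes rose and 0 fell from 0 to 72 h, where 28.3% of all tested genes rose and 19.5% fell (24.1% and 27.9% after rescaling to median ratios), and 3 rose from 0 to 144 h, against 27.4% and 23.9%. In DNMT3ABKO cells, 6 rose from 0 to 72 h, against 34.3% and 21.6% (28.5% and 30.2% after rescaling), and 5 rose from 0 to 144 h, against 31.4% and 26.2%. Asz1 was among the risers in DNMT3ABKO cells at both times, and without it 5 of 7 rose at 72 h and 4 at 144 h. The median change of these 7 genes at 72 and 144 h was 0.51 and 0.33 for KH, against 0.80 and 0.35 for the DNMT3ABKO line, and that of all tested genes 0.08, 0.05, 0.12 and 0.05. TPM is relative to each library's total, so these are changes in the share of RNA and not in its amount per cell.

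In KH cells Piwil2 rose by 1.11 ± 0.10 at 72 h, the largest rise among the members tested at that time (2.36 times in mean TPM, adjusted p = 2.01e-05) and by 0.70 ± 0.10 at 144 h (adjusted p = 2.26e-04), and in DNMT3ABKO cells by 1.32 ± 0.10 (adjusted p = 3.41e-06) and 0.94 ± 0.10 (adjusted p = 2.26e-05). In both lines the libraries of 72 h were above those of 144 h, which were above those of 0 h. From 72 to 144 h it fell by 0.40 in KH (adjusted p = 0.0150) and by 0.38 in DNMT3ABKO cells (adjusted p = 0.0157). In KH the fall was lost without KH 72 h replicate 1 or 2 or KH 144 h replicate 2 (adjusted p = 0.0631, 0.10 and 0.102). In DNMT3ABKO cells it was lost without any of the 72 h and 144 h libraries (adjusted p = 0.0649 to 0.0909).

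Mael rose by 0.64 ± 0.17 (adjusted p = 0.0121) and 0.73 ± 0.17 (adjusted p = 0.00565) in KH and by 1.39 ± 0.17 (adjusted p = 9.79e-05) and 1.31 ± 0.17 (adjusted p = 1.18e-04) in DNMT3ABKO cells at 72 and 144 h. Its libraries under mTORi lay above all untreated libraries in both lines. In KH the 72 h call was lost without KH 0 h replicate 1 (adjusted p = 0.0950) or KH 72 h replicate 1 (0.0832), and the 144 h call without KH 0 h replicate 1 (0.0514).

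Tex19.1 rose by 0.47 ± 0.06 (adjusted p = 2.47e-04) and 0.50 ± 0.06 (adjusted p = 1.22e-04) in KH and by 0.93 ± 0.06 (adjusted p = 2.16e-06) and 1.29 ± 0.06 (adjusted p = 9.29e-08) in DNMT3ABKO cells. Only in DNMT3ABKO cells did it also pass the test from 72 to 144 h, with a rise of 0.37 ± 0.06 (adjusted p = 0.00189) against 0.03 ± 0.06 (adjusted p = 0.792) in KH cells, and this pair of changes was not compared by a test of its own.

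Fkbp6 and Asz1 passed the test under mTORi in DNMT3ABKO cells. Fkbp6 rose by 0.80 ± 0.15 at 72 h (1.76 times, adjusted p = 0.00110) and stood at 0.35 ± 0.15 above 0 h at 144 h (adjusted p = 0.0601), with a fall from 72 to 144 h of -0.45 (adjusted p = 0.0457) that was lost without either 72 h or either 144 h library of DNMT3ABKO cells or either untreated KH library (adjusted p = 0.0589 to 0.159), in the fit without the filter (0.105), after rescaling (0.0672) and with the replicate number as a block (0.0707). In KH cells the change of Fkbp6 was 0.05 (95% interval -0.27 to 0.38) at 72 h and 0.33 (0.00 to 0.65, adjusted p = 0.0849) at 144 h. Asz1 rose by 0.98 ± 0.11 (adjusted p = 6.38e-05) and 1.01 ± 0.11 (adjusted p = 3.80e-05) in DNMT3ABKO cells, and its KH values stayed at or under 0.145 TPM.

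Mov10l1 rose at 72 h in both lines, by 0.65 ± 0.09 in KH (adjusted p = 3.25e-04) and 0.42 ± 0.09 in DNMT3ABKO cells (adjusted p = 0.00328). At 144 h it had risen by 0.33 ± 0.09 in DNMT3ABKO cells (adjusted p = 0.0108, and 0.0839 without DNMT3ABKO 144 h replicate 2) and was not called in KH cells (0.21 ± 0.09, adjusted p = 0.0850), where it fell from 72 to 144 h by 0.45 (adjusted p = 0.00680, and 0.0653 without KH 72 h replicate 1). Ddx4 rose in KH cells at 72 h by 0.51 ± 0.14 (adjusted p = 0.0110), which was lost without KH 0 h replicate 1 (0.0743) or KH 72 h replicate 2 (0.0600), and stood at 0.20 ± 0.14 in DNMT3ABKO cells (adjusted p = 0.227). Pld6 was not called, with changes of -0.30 to 0.25 over both lines and times.

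From 72 to 144 h, 0 of the 8 genes rose and 2 fell in KH cells, where 7.24% of all tested genes rose and 15.6% fell (12.3% and 15.7% after rescaling). In DNMT3ABKO cells, 1 rose and 2 fell, against 8.81% and 18.5% (15.8% and 17.5% after rescaling). In the fit without the filter, Tdrd1 rose at 72 h by 0.44 ± 0.08 in KH (adjusted p = 0.00610) and 0.39 ± 0.08 in DNMT3ABKO cells (adjusted p = 0.00758), and Tdrd9 rose in DNMT3ABKO cells by 0.42 ± 0.06 at 72 h (adjusted p = 0.00128) and 0.52 ± 0.06 at 144 h (adjusted p = 3.12e-04). That fit called 11.4% of all genes higher at 72 h in KH cells, and 16.5% at 72 h and 17.2% at 144 h in DNMT3ABKO cells.

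**Figure D4:**
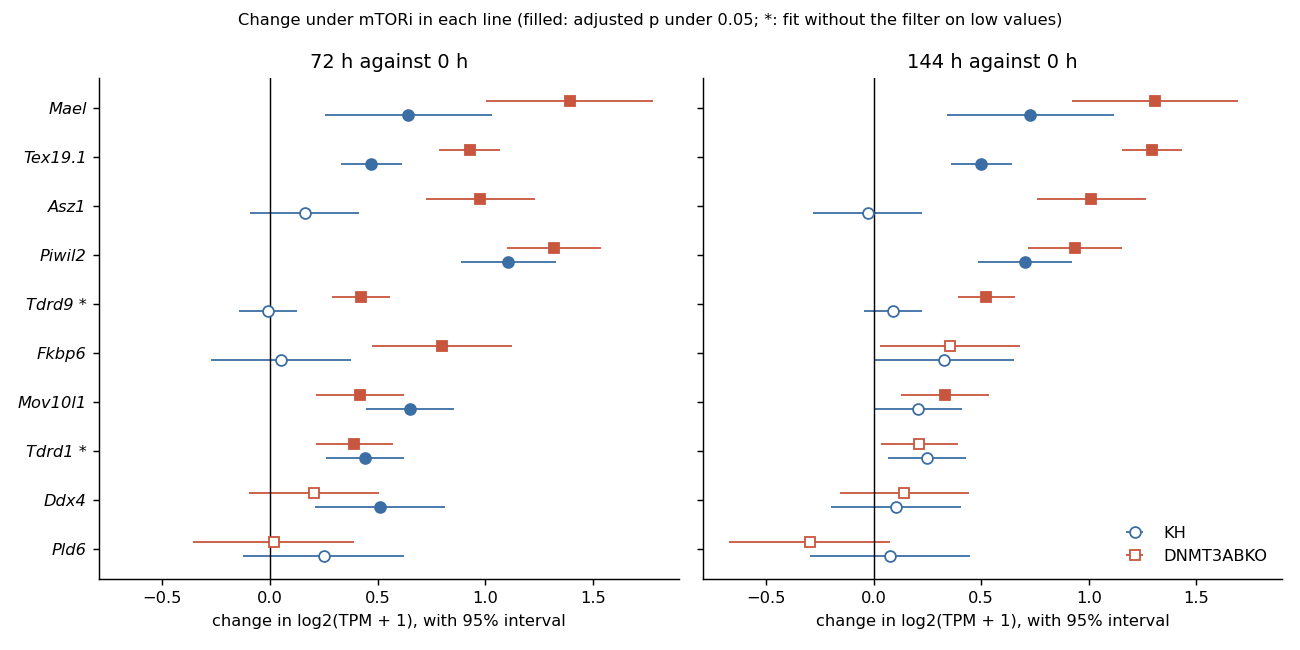
Change in log2(TPM + 1) (x axis) of each piRNA pathway gene (y axis) from 0 h to 72 h (left) and to 144 h (right) of mTORi in KH (circles) and DNMT3ABKO cells (squares), with 95% intervals and filled symbols for adjusted p under 0.05. Piwil2, Mael and Tex19.1 rose in both lines at both times, whereas Asz1 and, in the fit without the filter, Tdrd9 (asterisk) passed the test in DNMT3ABKO cells alone.

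Whether the response itself differed between the lines was tested by the interaction of line and time. At 72 h, 2 of the 8 genes had a larger rise in DNMT3ABKO cells and 0 a smaller one, against 3.38% and 1.86% of all tested genes. At 144 h these counts were again 2 and 0, against 4.89% and 3.70%. One of the pair at each time was Asz1, whose entry into the test came from the group in which it was high, and without it the count was 1 of 7. The genes were Asz1, by 0.81 ± 0.16 (adjusted p = 0.0176) and 1.04 ± 0.16 (adjusted p = 0.00289), and Tex19.1, by 0.46 ± 0.09 (adjusted p = 0.0169) and 0.79 ± 0.09 (adjusted p = 3.02e-04).

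The 72 h differences were the less stable of these. That of Asz1 was lost without KH 0 h replicate 2, KH 72 h replicate 1 or 2 or DNMT3ABKO 72 h replicate 1 (adjusted p = 0.0583, 0.0741, 0.0702 and 0.0777) and with the replicate number as a block (0.0536), and with 0.1 TPM added in place of 1 it was 0.30 (adjusted p = 0.753). That of Tex19.1 was lost without KH 0 h replicate 2 (adjusted p = 0.0573), KH 72 h replicate 1 or 2 (0.0871 and 0.0648) or DNMT3ABKO 72 h replicate 1 or 2 (0.0676 and 0.0792). The other members were not called, among them Fkbp6 (0.75 ± 0.21, adjusted p = 0.0714) and Mael (0.75 ± 0.24, adjusted p = 0.127) at 72 h. Without DNMT3ABKO 0 h replicate 2, both Fkbp6 (0.78, adjusted p = 0.0437) and Mael (1.03, adjusted p = 0.00683) passed. In the fit without the filter, Tdrd9 had a larger rise in DNMT3ABKO cells at 72 h (0.43 ± 0.08, adjusted p = 0.0423) and 144 h (0.43 ± 0.08, adjusted p = 0.0223), where 1.58% and 3.86% of all genes did.

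The replicates of untreated DNMT3ABKO cells were further apart than those of other groups, with an SD of log2(TPM + 1) over tested genes of 0.272 against 0.133 to 0.176. Most of the members showed the lower value in replicate 1 of this group, as for Ddx4 at 6.32 against 8.95 TPM, and only Mov10l1 the higher one.

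Other genes of the pathway, 23 by a list of names of which 22 were found and 17 tested, were compared in the same way. Against KH cells, those higher in DNMT3ABKO cells numbered 4, 8 and 10 at 0, 72 and 144 h, against 4.92%, 9.26% and 11.0% of all tested genes. Each time 1 was lower, against 4.14%, 10% and 15.5% of all tested genes. The median difference of the 17 genes was 0.19, 0.24 and 0.35, against -0.05, -0.04 and -0.04 over all tested genes. Piwil4, counted as higher at both later times, reached the level for the test only through the DNMT3ABKO libraries. Its KH group means were 0.233, 0.643 and 1.5 TPM in order of time. The highest rise was that of Gpat2, a mitochondrial membrane protein needed for piRNA production. It stood at 1.00 and 0.849 TPM in KH against 8.22 and 8.44 TPM in DNMT3ABKO cells at 0 h, at 2.63 and 2.67 against 17.6 and 18.6 TPM at 72 h, and at 3.25 and 3.58 against 14.8 TPM in both libraries at 144 h. All DNMT3ABKO libraries were above all KH libraries, with a log2 difference of 2.28 ± 0.09 (adjusted p = 2.68e-07), 2.39 ± 0.09 (adjusted p = 6.28e-08) and 1.84 ± 0.09 (adjusted p = 1.31e-07).

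The lowest differences among these genes were those of Tdrd5 at 0 h (-0.88 ± 0.15, adjusted p = 0.00512), Pnldc1, the trimmer of piRNA ends, at 72 h (-0.38 ± 0.10, adjusted p = 0.0218), and Tdrd12 at 144 h (-0.36 ± 0.08, adjusted p = 0.00805). Tdrd12 was called higher at 72 h (0.36 ± 0.08, adjusted p = 0.0112), so its direction differed between the times. In KH cells 10 of the 17 rose and 1 fell at 72 h, against 28.3% and 19.5% of all tested genes. At 144 h, 9 rose and 3 fell, against 27.4% and 23.9%. In DNMT3ABKO cells 11 rose and 2 fell at 72 h, against 34.3% and 21.6%. At 144 h, 10 rose and 3 fell in that line, against 31.4% and 26.2%.

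In KH cells the largest rises were those of Stk31 at 72 h (1.37 ± 0.09, adjusted p = 3.67e-06) and Gpat2 at 144 h (1.20 ± 0.09, adjusted p = 3.25e-06), and Tdrd7 fell most, by 0.33 at 72 h (adjusted p = 0.0377) and 0.91 at 144 h (adjusted p = 1.33e-04). In DNMT3ABKO cells they were those of Btbd18, a transcriptional regulator of piRNA precursors, at 72 h (1.80 ± 0.11, adjusted p = 1.15e-06) and Piwil4 (MIWI2, the nuclear PIWI protein) at 144 h (1.43 ± 0.12, adjusted p = 6.40e-06). Tdrd7 fell by 0.73 at 72 h (adjusted p = 4.85e-04) and Tdrd12 by 1.27 at 144 h (adjusted p = 5.19e-07). From 72 to 144 h, Piwil4 rose in both lines, by 0.60 ± 0.12 in KH (adjusted p = 0.00710) and 0.50 ± 0.12 in DNMT3ABKO cells (adjusted p = 0.0134), while Stk31 fell by 0.75 in KH (adjusted p = 3.72e-04) and Tdrd12 by 1.20 in DNMT3ABKO cells (adjusted p = 3.36e-06).

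The response differed between lines for 2 of the 17 at 72 h, Btbd18 (0.78 ± 0.16, adjusted p = 0.0196) and Dnmt3l (0.64 ± 0.08, adjusted p = 0.00133), both with the larger rise in DNMT3ABKO cells. At 144 h it differed for 4, from Rnf17 (0.64 ± 0.14, adjusted p = 0.0173) to Tdrd12 (-0.62 ± 0.11, adjusted p = 0.00720). Over all tested genes the response differed in either direction for 5.23% at 72 h and 8.59% at 144 h. Some genes of the pathway lay under the level for the test. Piwil1 (MIWI) was at 0 to 0.330 TPM in KH and at 0.311 to 1.15 TPM in DNMT3ABKO libraries, and Tdrd6, Henmt1, Exd1 and Spocd1 were at or below 0.683 TPM in every library. Tdrd15 was not found by symbol.

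**Figure D5:**
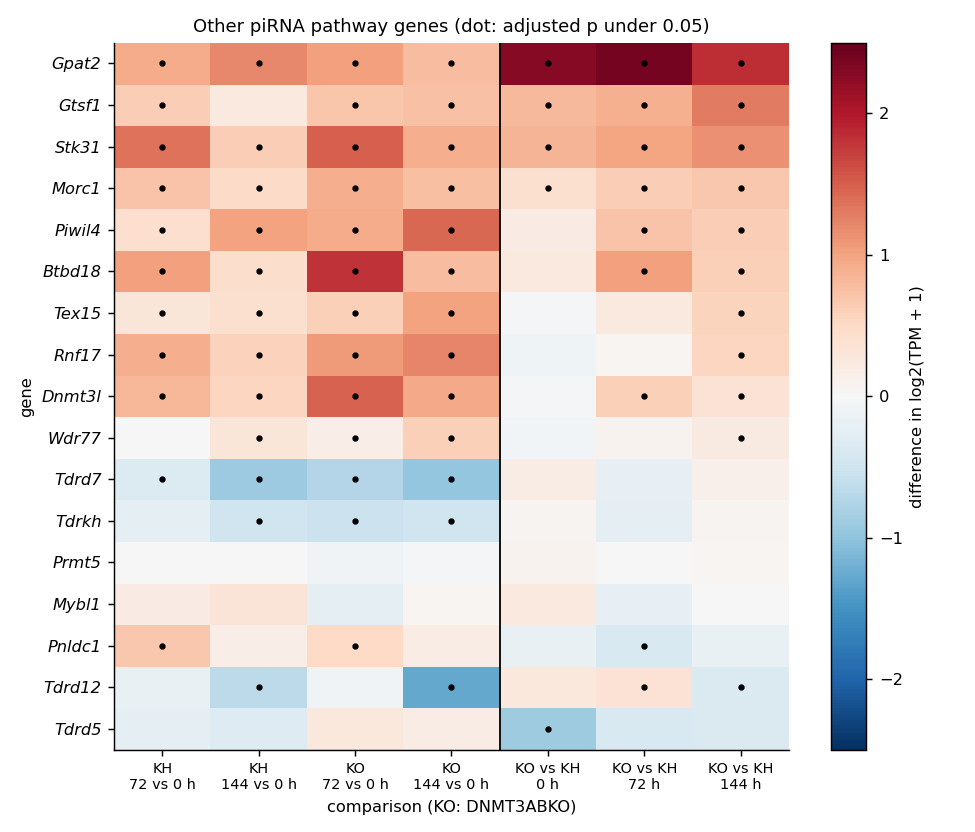
Differences in log2(TPM + 1) (colour) of 17 other piRNA pathway genes (y axis) for the change under mTORi in each line (left of the black line) and for DNMT3ABKO (KO) against KH cells at each time (right), with dots for adjusted p under 0.05. Gpat2 is the highest between lines, at 2.28, 2.39 and 1.84, and Tdrd7 is lower under mTORi in both lines.

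Germline genes outside the pathway were compared in the same way, with 11 tested (Dazl, Stra8, Hormad1 and others). Those called higher numbered 7, 8 and 9 at 0, 72 and 144 h, against the same 4.92%, 9.26% and 11.0% of all tested genes. Each time 1 was lower, against 4.14%, 10% and 15.5% of all tested genes. Slc25a31, counted as higher each time, was under 1 TPM in every KH library. It entered the test only through the DNMT3ABKO libraries, so its entry and its calls are tied. With every RefSeq window counted, CACGTG was present in 58.3% of the 12 windows of 11 germline genes outside the pathway. For the other pathway genes it was present in 22.7% of the 22 windows of 15 genes. The members had been counted with 1 window per gene. Of the factors that act on germline promoters, E2f6, Pcgf6, Mga, Max, Setdb1 and Dnmt1 were not called between the lines at any time, and L3mbtl2 was higher at 0 h alone (0.30 ± 0.07, adjusted p = 0.0320). Uhrf1 was not called at any time either. Tet2 was lower in every DNMT3ABKO library than in the KH libraries of its time. Its means were 30.2 against 41.9 TPM at 0 h, 72.4 against 89.8 TPM at 72 h and 66.1 against 81.7 TPM at 144 h. Tet1 overlapped between the lines at 0 and 72 h and was lower at 144 h (176 against 209 TPM). The proteins of these factors were not measured.

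The markers of other cells moved with some of these results. The 8 ES cell markers were at 1 TPM or more in all groups and summed to 2035 to 3092 TPM. The 12 fibroblast markers, which mark feeders, summed to 1075 to 1364 TPM at 0 h, 196 to 248 TPM at 72 h and 49.5 to 55.9 TPM at 144 h, and the 5 macrophage markers summed to 178 to 228 TPM at 0 h and to at most 32.4 TPM at 144 h. The summed feeder markers were lower at the times at which members were higher, and their part in the rises under mTORi was not tested. The mean fibroblast sum in the KH line was 1105 ± 41.3, 242 ± 8.72 and 51.5 ± 2.79 TPM at 0, 72 and 144 h (SD, n = 2), against 1314 ± 70.6, 205 ± 12.8 and 55.0 ± 1.28 TPM in the DNMT3ABKO line, so it was higher in the DNMT3ABKO libraries at 0 h and lower at 72 h, without overlap.

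The 10 markers of 2-cell-like cells, a rare state of ES cultures, followed the line difference. At 0, 72 and 144 h they summed to 2.41 ± 0.543, 0.896 ± 0.129 and 8.44 ± 0.964 TPM in the KH line, and to 67.5 ± 5.48, 164 ± 0.0179 and 775 ± 25.8 TPM in DNMT3ABKO cells. All 10 were under 1 TPM in both KH libraries at 0 and 72 h, among them Zfp352 and Tcstv3 at 0 in some, and none was in DNMT3ABKO cells. The part of this state in the levels of Tex19.1 and the other members was not tested. The 8 markers of primordial germ cells summed to 198 to 217 TPM in KH and 191 to 223 TPM in DNMT3ABKO cells at 0 h, and the 6 of spermatogonia and Sertoli cells to 89.3 to 91.7 and 108 to 130 TPM, and several of these genes are transcribed by ES cells as well. At 144 h both sums were apart. The germ cell markers summed to 109 to 112 TPM in KH against 140 to 151 TPM in DNMT3ABKO cells, and the others to 99.4 to 99.9 against 149 to 154 TPM. Each sum was carried by 1 gene, Dazl (means of 5.85 against 65.7 TPM) and Uchl1 (91.9 against 147 TPM). Of the other germ cell markers, Prdm1, Tfap2c, Nanos3, Dnd1 and Dppa3 had lower means in DNMT3ABKO cells, and Prdm14 and Kit higher ones. Zbtb16, Gfra1, Sox9, Amh and Gata4 all had lower means there. The part of these markers in the line differences was not tested.

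The genes most like Fkbp6 over the 12 libraries, among 12558 protein-coding genes and by Pearson's r of log2(TPM + 1), were Xlr3a (0.991), Nefh (0.989) and Ctcfl (0.988). Xlr3a, which has near copies, was at 0.286 TPM at 0 h in the KH line against 15.4 TPM in the DNMT3ABKO line, and Ctcfl (BORIS, the testis paralogue of CTCF) at 0.231 and 5.37 TPM. The most like Tex19.1 were Cadps2 (0.991), Uba1y (0.986) and Mageb4 (0.983), at far lower levels. Their means were 0.33, 0.49 and 0.28 TPM in KH cells at 0 h. In DNMT3ABKO cells at 144 h they were 2.2, 7.5 and 3.9 TPM, against 152 TPM for Tex19.1. Xlr3a, Ctcfl, Cadps2, Uba1y and Mageb4 reached the level for the test only through the DNMT3ABKO libraries. Among the members, Fkbp6 was closest to Asz1 (0.962) and Tdrd9 to Tex19.1 (0.968), whereas Fkbp6 and Tdrd1 ran opposite (-0.877). The 12 libraries share lines and times, so these values only describe the pattern over lines and times.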

How the data were processed

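Per the labels, the authors trimmed reads with cutadapt 2.4, aligned them to the mouse genome (mm10) with STAR 2.7.3a and quantified genes with StringTie 2.0, where the study's methods name other releases of the latter tools, and they deposited TPM values per gene, 1 library per file. ERCC spike-in RNA was added before library preparation with ribosomal RNA depletion, but no spike-in was listed and each library summed to 1000000 TPM, so values are relative and the read depth is unknown. Gene identifiers repeated within a file (9 to 16 per library) were summed.

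The scale of analysis was log2(TPM + 1), on which the change of a low gene is understated. Genes averaging 1 TPM or more over the libraries (15727) entered a limma fit (3.58.1 in R 4.3.3; moderated with eBayes, trend on) of the 6 groups, each with 2 libraries. A call required p below 0.05 after Benjamini-Hochberg adjustment over all tested genes. The study's count test could not be used on TPM. The study states that its experiments were repeated independently, but the labels do not tie this to these libraries, so p-values measure the spread between them, which may be technical in part. The fit was tested on simulated data. All adjusted p-values in the text come from limma.

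Settings tried in addition were 0.1 TPM as the pseudocount, no filter (37364 genes above 0), median-ratio rescaling, only the groups compared, the replicate number as a block, a minimum absolute log2 change of 1, and leaving out each library. Median-ratio rescaling moved the median change of all genes from 0.12 to -0.00 in DNMT3ABKO cells from 0 to 72 h.

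The members and lists were chosen with earlier results of these data known. Named genes were all members; of other pathway genes the largest called rise and fall per comparison and those under the filter; the nearest protein-coding genes; and the 3 genes most like Fkbp6 and Tex19.1. Loci were read from the deposited files and GENCODE M21, which matched 54409 identifiers, and promoters from RefSeq. Piwil2 had no promoter entry. Python 3.11.15 with pandas 2.3.3, NumPy 2.4.6 and matplotlib 3.10.9 was used.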

Additional observations from a re-analysis of the deposited data

Results flagged for a closer look

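The change under mTORi differed between DNMT3ABKO and KH cells for 4 of the results tested, by the interaction of line and time in limma. For Asz1 the rise was larger in DNMT3ABKO cells by 0.815 at 72 h and by 1.04 at 144 h on the log2(TPM + 1) scale. Its KH values lay at or near 0 TPM, and it entered the test only through the DNMT3ABKO libraries. Its entry and these differences are therefore tied. The 72 h difference of Asz1 depended on the added 1 (0.30 and adjusted p = 0.753 with 0.1 TPM added), and it was lost with the replicate number as a block (adjusted p = 0.0536) and in 4 fits with a library left out. For Tex19.1 the rise was larger by 0.457 at 72 h and by 0.793 at 144 h. The 72 h difference of Tex19.1 ran from 0.411 to 0.502 with a library left out, and it was lost in 5 of these fits. Its DNMT3ABKO libraries lay above its KH libraries at 72 and 144 h, as they already did at 0 h. No group had enough libraries to look for a single library far from the rest of its group.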

How the results depend on the processing

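Median-ratio rescaling added the calls of Piwil2 between lines at 0 h, Mael between lines at 144 h and the fall of Ddx4 from 72 to 144 h in KH, and ended that of Fkbp6 from 72 to 144 h in DNMT3ABKO cells. Without the filter, 2 low genes were added to those tested, and the calls of Fkbp6 from 72 to 144 h in DNMT3ABKO cells and of Mael between lines at 72 h were lost (adjusted p = 0.105 and 0.0668). A minimum absolute log2 change of 1 left fewer members called: 1 and 0 from 0 to 72 h and 0 to 144 h in KH, 2 and 3 in DNMT3ABKO cells, 0 from 72 to 144 h in either line, 3 between lines at 72 h and at 144 h, and 0 and 1 for the difference in response at 72 and 144 h. The difference in response at 72 h was called for 1 member with a pseudocount of 0.1 TPM, 0 with only the groups compared and 1 with the replicate block. Shares of all tested genes were not counted for the minimum change, this pseudocount, the groups compared or the replicate block. These counts therefore show only how the member calls depend on the setting.

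Leaving out each library in turn gave these lowest and highest numbers of members called, for which no share of all tested genes was counted. In KH cells there were 3 to 5 from 0 to 72 h and 0 to 3 from 72 to 144 h, and in DNMT3ABKO cells 1 to 3 from 72 to 144 h. Between lines there were 3 to 6 at 72 h and 3 to 7 at 144 h. For the difference in response there were 0 to 4 at 72 h, with 4 without DNMT3ABKO 0 h replicate 2, and 2 to 4 at 144 h, with 4 without the same library.

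Directions turned only for differences that were not called. With rescaling, Fkbp6 from 0 to 72 h in KH was -0.012 and Pld6 from 0 to 72 h in DNMT3ABKO cells -0.087, and with a pseudocount of 0.1 TPM the difference in response of Fkbp6 at 144 h was -0.14. With a library left out, Fkbp6 ran from -0.19 to 0.29 for KH 72 h against 0 h and from -0.11 to 0.16 for the difference in response at 144 h. Mael ran from -0.35 to 0.20 between lines at 0 h. Ddx4 ran from -0.018 to 0.42 and from -0.077 to 0.36 in DNMT3ABKO cells at 72 and 144 h, and from -0.18 to 0.26 for the difference in response at 144 h. Pld6 ran from -0.0041 to 0.16 in KH at 144 h, from -0.17 to 0.20 in DNMT3ABKO cells at 72 h and from -0.13 to 0.026 between lines at 0 h. The cause was not tested.

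The labels do not say that a replicate number marks a shared batch, although the study states that time points of a replicate were handled together. Differences between replicates correlated by -0.104 to 0.0996 between groups of the same line and by -0.0641 to 0.336 across lines, the highest between untreated KH and DNMT3ABKO cells, so the numbers were not taken as pairs. The replicate block ended the calls of Fkbp6 from 72 to 144 h in DNMT3ABKO cells (adjusted p = 0.0707), Asz1 for the difference in response at 72 h (0.0536) and Mov10l1 between lines at 144 h (0.0898). With unknown depth, values under 1 TPM (Asz1 in KH, Tdrd1, Tdrd9) have no counting interval.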
